A study of Mus musculus with 4 samples.

Results

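The genes described here were 6 connexin genes, Gja1, Gja3, Gja4, Gja5, Gjb2 and Gjc1, and Tjp1, which encodes the junction scaffold ZO-1. They were taken from the table by gene symbol, with no threshold on their values, and all 7 were found among the 20701 symbols of the expression table of day 5 cardiac progenitor cells (CPCs). RNA-Seq was done on mouse CPCs derived from E14 Tg(Nkx2-5-EmGFP) embryonic stem cells (ESCs) and sorted for the GFP that the Nkx2-5 reporter drives. There were 2 control and 2 Baf60c KD libraries, and the question was which transcripts depend on Baf60c, a subunit of the Brg1-containing SWI/SNF chromatin remodelling complex encoded by Smarcd3. Control cells carried the pLKO control vector and KD cells an shRNA against Baf60c, both as stably transduced ESC pools. The sources used here do not give the shRNA against Baf60c behind these libraries. The ESCs of both groups were kept on mitomycin-treated mouse embryonic fibroblasts before differentiation. The labels name ESCs as the cell type of all libraries, although the RNA came from their sorted day 5 derivatives.

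Connexins are membrane proteins that assemble into hemichannels. Hemichannels of neighbouring cells dock to form gap junctions, through which ions and small molecules pass and through which the cardiac impulse spreads. In the working myocardium Gja1 (Cx43) is the principal connexin, Gja5 (Cx40) marks atrial muscle, the fast conduction system and arterial endothelium, and Gjc1 (Cx45) is the connexin of the early heart tube and the nodes. The C-terminal end of Cx43 is bound by a PDZ domain of ZO-1, which sits at the edge of the junctional plaque.

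Because that contact runs through the last residues of the protein, the last 30 coding bases of each connexin are shown, read on the coding strand of mouse build mm9. Capitals mark the last 4 codons before the stop codon.
Gja1 (chr10:56108472-56108501, plus strand): agacctcggcctgatGACCTGGAGATTtaa
Gja3 (chr14:57654497-57654526, minus strand): cgtgccagaccaggtGACTTGGCCATCtag
Gja5 (chr3:96855599-96855628, plus strand): aaagcaaggtcagatGACCTGTCAGTGtga
Gjc1 (chr11:102661299-102661328, minus strand): ggggatgggaagaccTCCGTCTGGATTtaa
Gja4 (chr4:126989211-126989240, minus strand): agctctgcatccaagAAGCAGTATGTGtag
Gjb2 (chr14:57718906-57718935, minus strand): tgctcaggaaagtccAAAAGACCAGTCtaa
Of the 12 bases in these codons, Gja3 shared 8 with Gja1, Gja5 shared 7, Gjc1 shared 6, Gja4 shared 5 and Gjb2 shared 2. At the level of whole codons, Gja5 shared 2 of 4 with Gja1, Gja3 and Gjc1 shared 1 each, and Gja4 and Gjb2 shared 0. Synonymous codons, such as CTG in Gja1 and TTG in Gja3, count as different, so this order is not one of shared residues. These are matches of letters and say nothing about binding.

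In mm9 the genes lay at chr10:56097106-56110225 (Gja1, plus strand), chr14:57654445-57676867 (Gja3, minus), chr4:126988665-126991283 (Gja4, minus), chr3:96836339-96857557 (Gja5, plus), chr14:57717437-57723539 (Gjb2, minus), chr11:102660893-102666215 (Gjc1, minus) and chr7:72441051-72516125 (Tjp1, minus). The reference transcripts of Gja1, Gja3, Gja4, Gja5 and Gjb2 had 2 exons, that of Gjc1 had 3 and that of Tjp1 had 28. None shared exon bases with another annotated gene.

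The promoter of Gja1, the member with the largest change, is shown as the 250 bases before its start in RefSeq (build GRCm38.p6, chr10:56377050-56377299, plus strand). Capitals mark an AP-1 motif (TGANTCA) and, on the other strand, a GATA motif (AGATAA). AP-1 is the dimer of the Fos and Jun families, whose levels are given with the regulators.
Gja1 promoter: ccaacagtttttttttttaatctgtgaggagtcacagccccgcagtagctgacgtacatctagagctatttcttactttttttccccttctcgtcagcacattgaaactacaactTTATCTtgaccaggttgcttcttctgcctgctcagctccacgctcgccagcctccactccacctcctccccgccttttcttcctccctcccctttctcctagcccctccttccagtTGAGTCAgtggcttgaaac
Both strands were searched in 7 windows of 6 of the 7 members, since Gja3 had 2 annotated promoters, and Gjc1 was not matched. The AP-1 motif occurred in 6.75% and the GATA motif in 9.99% of 32851 promoters of this length. The GC box (GGGCGG) occurred in the promoters of Tjp1, Gja4, Gja5 and Gjb2, and in 32.7% of all promoters. The T-box motif GGTGTG, present in 16.3% of promoters, and the NKX motif CAAGTG, present in 11.6%, were in none of these 7 windows.

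Values were RPKM, reads scaled to transcript length and to the total of the library. The library totals used as divisors, as recovered from the RPKM values, were 22064092 to 30398452. The 1 transcript kept per gene held 12623031 to 17649363 reads per library. Nothing but the 2 ESC pools named in the labels says how the replicates of a group were separated, and the p-values cover only how far these libraries spread, which may be technical. Smarcd3 was at 173.9 and 166.8 RPKM in control and at 46.42 and 46.34 in KD libraries, 3.67-fold lower (adjusted p = 2.69e-10, limma). Of 11371 genes tested with limma on log2(RPKM + 1), 54.3% were called at an adjusted p under 0.05, 36.1% as higher and 18.2% as lower in KD CPCs. The median log2 fold change of all tested genes was 0.07. Of the called genes 66.4% were higher, against 50.3% when libraries were scaled by median ratios, which put the median at 0.00.

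Gja1, the main cardiac connexin, rose 1.66-fold in KD CPCs and Tjp1 rose 1.25-fold, while Gjc1 rose and Gja4 fell by calls that rested on single libraries. Of the 7 members 4 passed the filter of a mean of 0.5 RPKM. Gja1, Tjp1 and Gjc1 were called higher and Gja4 was called lower, beside 54.3% of all tested genes called in either direction. Gja3, Gja5 and Gjb2 lay under the filter in this fit and were not tested.

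**Figure D1:**
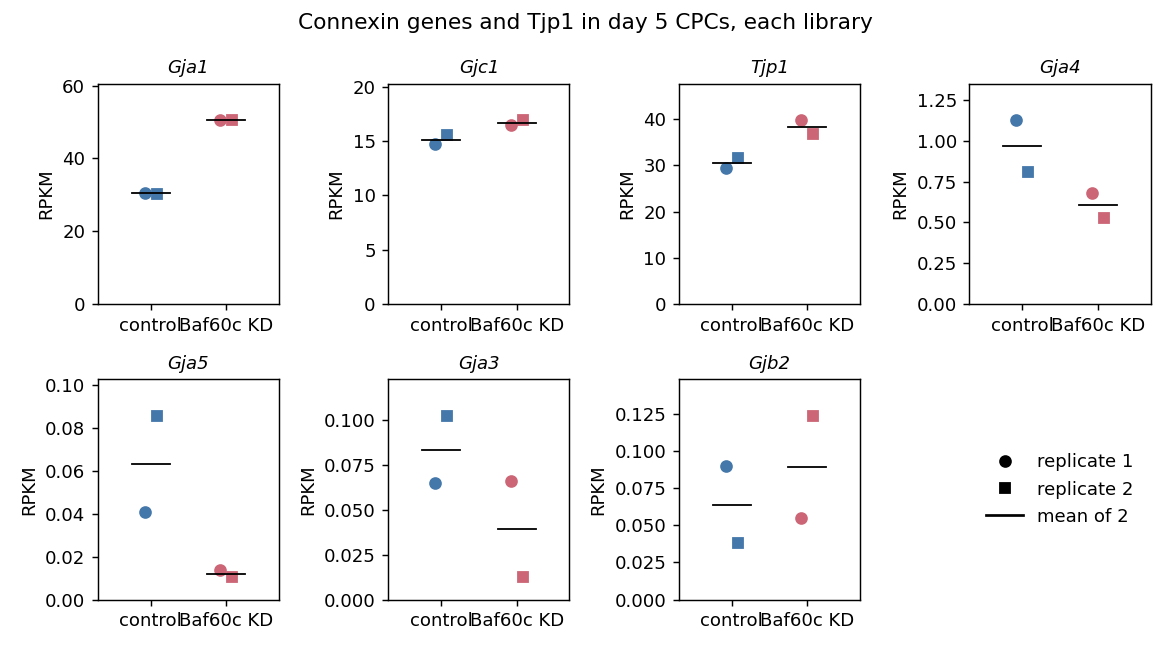
RPKM of each of the 7 genes in the 2 control and 2 Baf60c KD libraries, with each point a library and each line the group mean, on an axis of its own for each gene. The KD libraries of Gja1 sit at 50.5 and 50.4 RPKM, above 30.6 and 30.2 in control, while Gja3, Gja5 and Gjb2 stay near 0.

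Gja1 was at 30.6 and 30.2 RPKM in control libraries and at 50.5 and 50.4 RPKM in KD libraries, from 2069 to 4754 reads. Both KD libraries lay above both control libraries, and the replicates of a group differed little. The mean rose from 30.4 ± 0.259 to 50.4 ± 0.0171 RPKM (SD, n = 2 libraries), 1.66-fold. On the log2(RPKM + 1) scale the change was 0.71 ± 0.033 (SE), with a 95% interval of 0.64 to 0.78 (adjusted p = 1.32e-07, limma). With median-ratio scaling it was 0.64. The log2 fold change was above that of 97.1% of tested genes. By the stricter rule of a log2 fold change over 0.58 with an adjusted p under 0.05, 4.8% of tested genes were higher. With the sign turned, 3.56% were lower. Gja1 was the only member of the 7 to meet this rule in the main fit. Gja4 also met it, on the lower side, with a pseudocount of 0.1 (-0.59, adjusted p = 0.032, limma) and with limma-voom (-0.69, adjusted p = 0.0192).

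Gjc1 was at 14.7 and 15.6 RPKM in control libraries and at 16.5 and 16.9 RPKM in KD libraries. The groups did not overlap, but the gap between them was close to that between the control replicates. The mean was 15.1 ± 0.590 RPKM in control and 16.7 ± 0.285 in KD (SD, n = 2 libraries), a log2 fold change of 0.14 ± 0.044 (SE, adjusted p = 0.0262, limma). The call was lost when the libraries were scaled by median ratios (0.062, adjusted p = 0.276, limma), and without control replicate 1 (0.10, adjusted p = 0.108) or KD replicate 2 (0.12, adjusted p = 0.132). The other transcripts of Gjc1 in the table, NM_001159382 and NM_001159383, were at 17.7 to 18.8 RPKM in control and 19.6 to 20.6 in KD libraries.

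Gja5 gave 3 and 6 reads in control libraries and 1 in each KD library, 0.0407, 0.0856, 0.0139 and 0.0104 RPKM. The KD libraries lay below the control libraries, at a level of a few reads. Summed over libraries, 9 reads in control stood against 2 in KD, a ratio of rates of 0.19 with an exact 95% interval of 0.0199 to 0.916 that covers counting error only. In the fit without a filter its adjusted p was 0.11 (limma), so a difference beyond the spread between libraries was not detectable at this depth.

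Gja4 (Cx37), a connexin of arterial endothelium, was at 1.13 and 0.808 RPKM in control and at 0.681 and 0.528 in KD libraries, from 26 to 44 reads. The groups did not overlap. The mean was 1.60-fold lower in KD CPCs, 0.967 ± 0.225 against 0.604 ± 0.108 RPKM (SD, n = 2 libraries), and the log2 fold change was -0.29 ± 0.098 (SE, adjusted p = 0.0311, limma). The pseudocount of 1 compresses changes of so low a gene: a pseudocount of 0.1 gave -0.59, and -0.69 came from limma-voom on the recovered reads. The call was lost without the filter (adjusted p = 0.0628), without control replicate 1 (-0.17, adjusted p = 0.166) and without KD replicate 2 (-0.22, adjusted p = 0.129).

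Gja3 (Cx46), known from the lens, gave 4, 6, 4 and 1 reads in the control and then the KD libraries. The groups overlapped, and the ratio of rates was 0.426 with an exact interval of 0.114 to 1.37. Gjb2 (Cx26), known from the cochlea and from epithelia, gave 5 and 2 reads in control and 3 and 9 in KD libraries. Its groups overlapped too, with a ratio of 1.46 and an interval of 0.531 to 4.38.

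Tjp1 was at 29.5 and 31.6 RPKM in control libraries and at 39.7 and 36.8 in KD libraries. Both KD libraries were above both control libraries, by more than the replicates differed. The mean rose 1.25-fold, from 30.6 ± 1.51 to 38.3 ± 2.05 RPKM (SD, n = 2 libraries), with a log2 fold change of 0.32 ± 0.047 (SE, adjusted p = 0.000406, limma). The second transcript of Tjp1, NM_009386, was at 28.2 and 30.3 RPKM in control and at 38.3 and 35.4 in KD libraries.

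Within control libraries the order of levels per length was Gja1 and Tjp1, then Gjc1, then Gja4, with Gja3, Gja5 and Gjb2 last. Gja1 and Tjp1 could not be ordered in control CPCs, where their ratio was 1.04 and 0.956. In KD CPCs Gja1 was above Tjp1 in both libraries, at ratios of 1.27 and 1.37.

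Gja1 took a larger share of the connexin transcripts in both KD libraries than in either control library. The summed RPKM of the 20 connexin symbols in the table was 49.0 and 49.7 in control and 70.9 and 71.2 in KD libraries. Gja1 made up 62.4% and 60.9% of this sum in control libraries and 71.2% and 70.8% in KD libraries. The share of Gjc1 was 30.1% and 31.3% in control and 23.3% and 23.8% in KD. The ratio of Gja1 to Gjc1 was 2.08 and 1.94 in control and 3.05 and 2.98 in KD libraries. The groups did not overlap in these shares, and with 2 libraries against 2 an exact two-sided permutation test cannot go below p = 0.333. The lower share of Gjc1 stood beside a level of Gjc1 that was not lower.

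**Figure D2:**
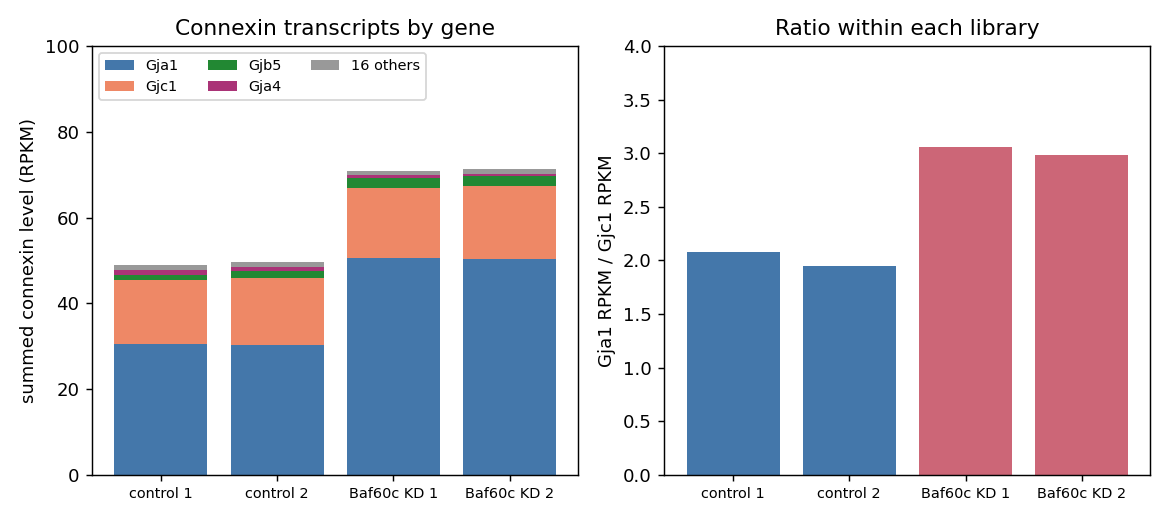
Connexin transcripts in each of the 4 libraries, as RPKM summed over the 20 connexin symbols and split into the leading genes (left), and the ratio of Gja1 to Gjc1 (right). The bars reach 49.0 and 49.7 RPKM in control and 70.9 and 71.2 in KD libraries, and most of the gain is in the Gja1 segment.

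Of the 20 connexin symbols, 5 passed the filter, 9 had reads under it and 6 had no read in any library. Gjb5 (Cx31.1), known from skin and trophoblast, was at 1.29 and 1.79 RPKM in control and 2.23 and 2.28 in KD libraries and rose (log2 fold change 0.37 ± 0.095 SE, adjusted p = 0.00955, limma). Without control replicate 1 its log2 fold change was 0.22 (adjusted p = 0.0433, limma).

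The pannexins are channel proteins of similar topology that release ATP and seldom form gap junctions. Panx2 was at 1.54 and 1.16 RPKM in control and 0.271 and 0.357 in KD libraries, 4.29-fold lower (adjusted p = 7.32e-05, limma). Its log2 fold change was -0.83 on the log2(RPKM + 1) scale, which understates a gene of this level, -1.80 with a pseudocount of 0.1 and -2.06 with limma-voom. Panx1 was at 4.02 and 3.51 RPKM in control and at 4.28 and 4.61 in KD libraries (log2 fold change 0.20, adjusted p = 0.0419, limma), a call that was lost in 6 of 13 alternative settings, among them the fits without control replicate 2 (0.12, adjusted p = 0.21) and without KD replicate 2 (0.15, adjusted p = 0.188).

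**Figure D3:**
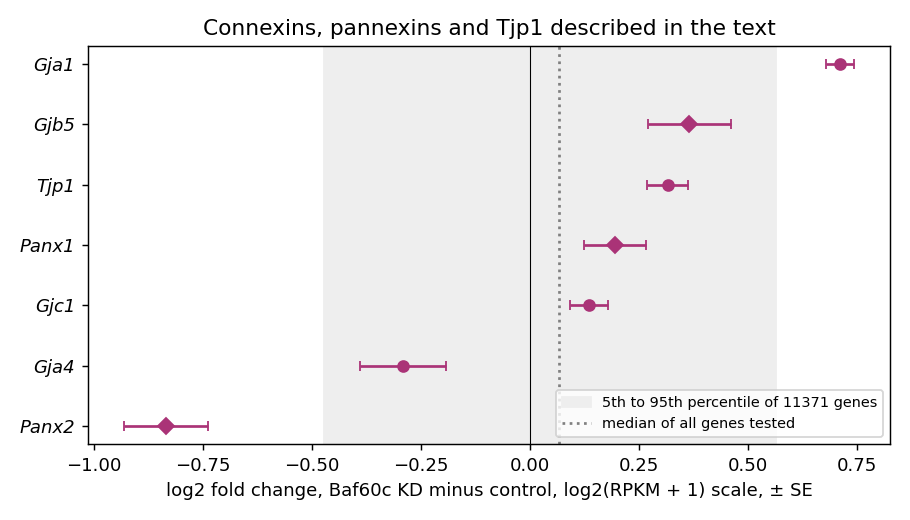
Log2 fold change on the log2(RPKM + 1) scale, KD minus control, of Tjp1 and of the connexins and pannexins described in the text that passed the filter, with bars for ± 1 SE from limma and a grey band from the 5th to the 95th percentile of all tested genes. Gja1 stands at 0.71 and Panx2 at -0.83, on either side of the median of all tested genes at 0.07.

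The genes whose 4 values were most like those of Gja1 were Cobll1, Mum1l1 and Spry2, at Euclidean distances of 0.0113, 0.0178 and 0.0198 on centred log2(RPKM + 1), among 2239 genes of similar level. For Gja4 they were Dnaja4, Tmem184a and Samd10, at 0.0205, 0.0495 and 0.0609 among 2351 genes. With only 4 libraries many genes share a pattern.

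Genes of and around the gap junction moved in both directions. The 6 lists covered other connexins, pannexins, connexin partners, kinases, tight junction genes and cardiac regulators. Of their 68 tested genes, 27 were called higher, 29 lower and 12 neither. Of all tested genes 54.3% were called, 36.1% as higher and 18.2% as lower. Of 20 connexin partners and trafficking genes tested, 5 were higher and 10 lower, with a median log2 fold change of -0.09 against 0.07 over all genes, and with median-ratio scaling 3 were higher and 11 lower. Ank3, encoding ankyrin-G, a membrane adaptor of the intercalated disc, fell from 32.1 and 32.4 to 17.5 and 17.7 RPKM (log2 fold change -0.84, adjusted p = 9.32e-08, limma). Ctnna3, encoding αT-catenin of the disc, fell 3.05-fold, from 1.18 and 1.24 to 0.433 and 0.359 RPKM. At so low a level the pseudocount of 1 held its log2 fold change to -0.66, against -1.40 with a pseudocount of 0.1 and -1.62 with limma-voom. Cdh5, the endothelial VE-cadherin, fell 1.72-fold, from 2.43 and 2.29 to 1.26 and 1.47 RPKM, with a log2 fold change of -0.51, or -0.77 with limma-voom. Tubb5, a β-tubulin of the microtubules on which connexins travel, rose from 447 and 442 to 639 and 650 RPKM (log2 fold change 0.53). N-cadherin (Cdh2), which holds the disc together and was picked with its values in view, fell by 0.45, from 62.4 and 63.6 to 44.9 and 46.9 RPKM.

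Of 11 kinases known to phosphorylate Cx43 or studied with it, 3 were called higher and 5 lower at a median of 0.04. The shares over all tested genes were 36.1% and 18.2%, at a median of 0.07. Prkca, encoding protein kinase Cα, fell from 3.49 and 3.32 to 1.26 and 1.15 RPKM (2.82-fold, adjusted p = 2.75e-06, limma). Camk2d, the main cardiac CaM kinase II, fell by 0.58 and Prkce, encoding protein kinase Cε, by 0.50. Mapk3, encoding Erk1, rose by 0.47.

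Of 12 tight junction and zonula occludens genes tested, 8 were called higher and 2 lower at a median of 0.22. With median-ratio scaling 6 were higher and 3 lower. Among all tested genes 36.1% were called higher and 18.2% lower, at a median of 0.07. F11r, encoding the adhesion molecule JAM-A, fell from 37.0 and 34.7 to 14.8 and 15.6 RPKM (log2 fold change -1.19, adjusted p = 4.2e-08, limma). Cgnl1, encoding paracingulin, rose by 0.73, and the claudins Cldn4 and Cldn6 rose 2.41-fold and 1.72-fold at levels of 0.19 to 1.67 RPKM. For Cldn4 the log2 fold change was 0.44, or 0.29 without control replicate 1, 1.14 with a pseudocount of 0.1 and 1.36 with limma-voom. For Cldn6 it was 0.41, or 0.71 with a pseudocount of 0.1 and 0.74 with limma-voom.

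The 21 tested genes of the regulator list were mostly cardiac and AP-1 transcription factors, with Sp1 and Id2 beside them. Several are known regulators of connexin genes. Of the 21, 9 were called higher, 11 lower and 1 neither at a median of -0.13. With median-ratio scaling 7 were higher and 11 lower. All tested genes stood at 36.1% higher and 18.2% lower. Hand2, which acts in the second heart field, rose by 1.27 on the log2 scale. The AP-1 genes Fos and Jun fell by 1.80 and 1.62, Fos from 102 and 100.4 to 29.1 and 27.6 RPKM and Jun from 48.1 and 46.5 to 15.2 and 14.2. Among genes of this list named after their values were seen, Tbx5, an activator of Gja5, fell by 0.48, and Nkx2-5, whose reporter was used in the sort, by 0.46. Tbx3, a repressor of Gja1 and Gja5, rose by 0.39.

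**Figure D4:**
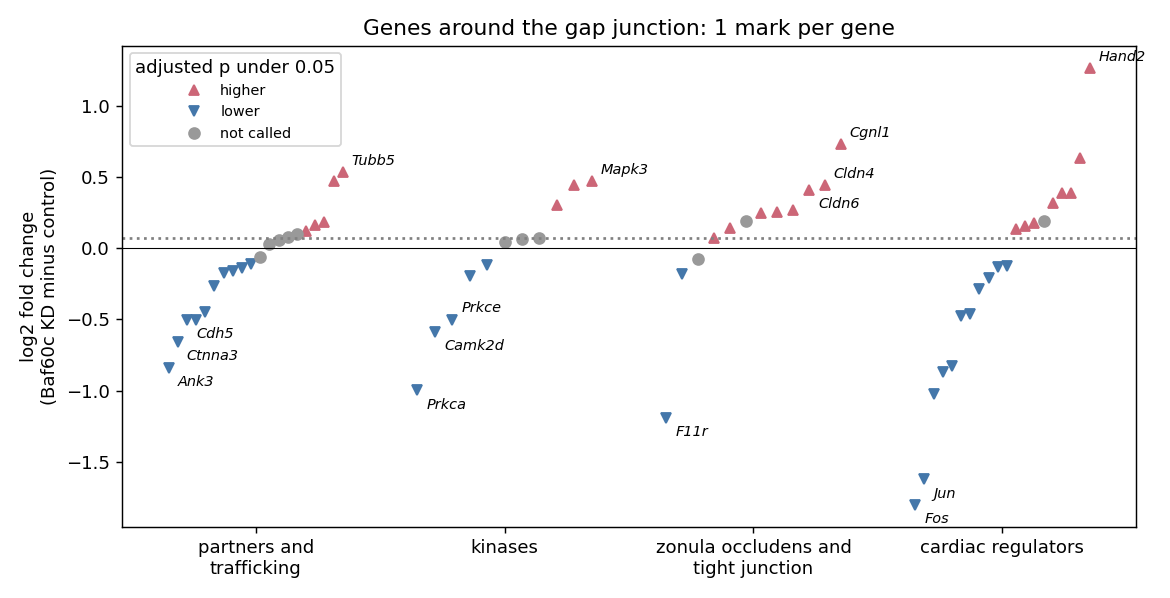
Log2 fold change, KD minus control, of the tested genes in the lists of partners, kinases, tight junction genes and regulators, with genes named in the text labelled and 1 regulator left out. Partners and regulators spread to both sides of 0. Of 12 tight junction genes 8 are called higher (6 with median-ratio scaling), beside 36.1% of all tested genes.

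Markers of the cells that could be in the sort differed between the groups as well, some in the direction of Gja1 and Tjp1 and some in the other. Over all tested genes 36.1% were higher and 18.2% lower. All 10 cardiomyocyte markers tested fell, with sums of 7427 and 7229 RPKM in control and 3091 and 3150 in KD libraries. Of the epithelial and endoderm markers 6 of 7 tested rose and 1 fell, with sums of 132.1 and 126.4 against 270.3 and 272.9 RPKM. With median-ratio scaling 5 of these rose and 1 fell. Of the fibroblast and feeder markers 4 of 5 rose and 1 fell, with sums of 54.5 and 55.8 against 67.4 and 69.0 RPKM. Of the epicardial markers 4 of 6 rose, from 29.8 to 43.3 and 43.9 RPKM in sum. With median-ratio scaling 4 of these rose and 1 fell.

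Of the endothelial markers, beside Gja4 and Gja5, 5 of 13 rose and 4 fell, with sums of 47.1 and 44.9 against 67.6 and 70.5 RPKM. The counts in this paragraph stand beside 36.1% higher and 18.2% lower over all tested genes. Of the arterial markers 4 of 6 rose and 1 fell. With median-ratio scaling 3 rose and 1 fell. Their sums were 137.6 and 136.98 against 170.4 and 168.7 RPKM, with Bmx without a read. Most of that sum came from Nrp1, at 74.3 and 74.1 RPKM in control and 95.6 and 94.5 in KD libraries, and Unc5b, at 42.5 and 41.4 against 47.3 and 46.5 RPKM. Hey1 fell 1.67-fold, and Dll4, Notch4, Sox17 and Cxcr4 were under the filter. Smooth muscle markers had 2 of 7 higher and 4 lower, with sums of 1125 and 1119 against 799 and 793 RPKM. Blood markers had 3 of 4 higher, with sums of 6.04 and 6.43 against 21.1 and 22.0 RPKM and Ptprc at 0. Pluripotency markers had 1 of 3 higher and 2 lower, with sums of 46.4 and 49.8 against 31.5 and 30.8 RPKM and Dppa3 at 0. Apart from the epithelial, epicardial and arterial lists, the marker counts were the same with median-ratio scaling. In such bulk libraries fewer cells of a type and less RNA per cell cannot be told apart, and the part of these cell types in the connexin values was not tested.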

How the data were processed

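Day 5 CPCs positive for the Nkx2-5 reporter were profiled by RNA-Seq, deposited as 1 table of transcripts with RPKM values for 2 control and 2 Baf60c KD libraries, grouped by their titles. Per the study's methods and the labels, the authors mapped reads to mm9 with STAR, counted exon reads on both strands with HOMER, tested with DESeq2 and computed the deposited RPKM values with edgeR; tool versions are not given in the sources used here. Counting without strand cannot tell a gene from an antisense partner. The deposited table holds 35707 rows in 2 stacked parts of 31507 and 4200 rows that were divided by different totals, and only the first part was used. All values of both parts were whole reads (100.0%, tolerance 0.001 reads) once multiplied by length and total.

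For each symbol the transcript with the highest mean of RPKM times length was kept, so that 12 rows of the 7 genes became 7. Genes with a mean of at least 0.5 RPKM were fitted as log2(RPKM + 1) with limma 3.58.1 (R 4.3.3, trend and robust options, no covariate), with p-values adjusted by Benjamini-Hochberg over 11371 genes and called under 0.05. The script was tested on simulated data. Alternatives were a pseudocount of 0.1, no filter, a mean of at least 50 reads, median-ratio scaling, limma-voom on recovered reads, a plain variance prior, all transcripts, the longest transcript, each library left out, and the replicate number as a block. The members and lists were chosen with earlier results of these data known. Genes named from a list are up to 4 called members with the largest absolute log2 fold change, and any other connexin or pannexin over the filter; some genes that meet this rule are not reported here; the genes most alike are the 3 nearest within 1 log2 unit of the mean level. Coding ends are from the mm9 genome with GENCODE M1, promoters from RefSeq. The 2 libraries per group limit precision, and intervals on reads cover counting error only.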

Additional observations from a re-analysis of the deposited data

How the results depend on the processing

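The calls of Gja1 and Tjp1 held under all 13 alternatives, with log2 fold changes of 0.64 to 0.73 and 0.24 to 0.37. Gja4 was not called without the filter (-0.29, adjusted p = 0.0628, limma), its value ranged from -0.41 to -0.17 with each library left out, and it was not tested under the minimum of 50 reads. Gjc1 was not called with median-ratio scaling (0.062) or with neither trend nor robust options (0.14, adjusted p = 0.0573, limma), and ranged from 0.10 to 0.17 with each library left out. A pseudocount of 0.1 gave -0.42 for Gja3, -0.53 for Gja5 and 0.20 for Gjb2, against -0.06, -0.07 and 0.03, since a pseudocount of 1 lies far above their levels. Fitting all transcripts gave 6745 higher and 3572 lower, because 19001 rows were tested in place of 11371. With each library left out, 3527 to 4000 genes were higher and 1762 to 2027 lower. Libraries with the same replicate number did not deviate together (correlation 0.024 over 11371 genes). This cannot tell whether they were handled as pairs, which the sources used here do not say. A fit with the replicate number as a block gave 4090 higher and 2067 lower genes, 0.71 for Gja1, and an adjusted p of 0.0548 (limma) for Panx1. At 1 to 9 reads per library, Gja3, Gja5 and Gjb2 were limited by depth.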
